A study of Mus musculus with 9 samples.

Results

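Myotubes depleted of the histone variant macroH2A1.1 were compared with control myotubes by mRNA sequencing, 3 samples with si mH2A1.1 against 3 with si Ctrl out of 9 samples in all. The cells were C2C12, an immortal line of mouse myoblasts that stop dividing and fuse into multinucleated myotubes when serum is withdrawn, and they were collected on day 4 of differentiation. Each group received siRNA at 10 nM, delivered repeatedly around the start of differentiation. The controls carry the genotype Wild Type in the labels and are called si Ctrl in the study, which names them as control siRNA cells. All samples share the same parent line and protocol, and the study describes the 3 replicates of a group as independent. Neither the labels nor the methods say which of the siRNAs designed against macroH2A1.1 was used for sequencing. The other 3 samples received si mH2A1.2, against the second splice form of the same gene, and served here to ask whether a change with si mH2A1.1 differed from that of the other knockdown. The whole transcriptome was taken, 19545 genes with enough counts out of 52780 in the table, and the matrix genes are treated only briefly.

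MacroH2A1 is a histone of the H2A family with a large globular macrodomain outside the nucleosome. Its gene gives both splice forms through a mutually exclusive exon, and only the macrodomain of macroH2A1.1 binds ADP-ribose, the product of the PARP enzymes. A differentiating myotube leaves the cell cycle, turns on the factors of the MyoD family, fuses, builds sarcomeres and switches its metabolism toward oxidation. A cell that senses foreign nucleic acid follows another programme. Receptors of RNA or DNA signal to IRF factors, interferon is made, and the STAT and IRF factors downstream of its receptor switch on a large set of antiviral effectors.

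The gene of both splice forms, H2afy (ENSMUSG00000015937, chromosome 13, 56073619 to 56136361, minus strand, in GRCm38 with the GENCODE M21 annotation), was at 56.3, 62.4 and 61 CPM with si Ctrl and 38.8, 30.0 and 30.9 CPM with si mH2A1.1. CPM is a gene's count scaled to library size, after TMM scaling between libraries. All 3 knockdown samples lay under the lowest control (log2 fold change -0.85, standard error 0.11, adjusted p = 0.00331, edgeR's quasi-likelihood test with Benjamini-Hochberg adjustment over all genes, as for every adjusted p given here). The counts sum both forms, so this value is a lower level of the sum and no measure of macroH2A1.1 itself. The other 5 H2A variant genes of its list did not pass. The 6 genes summed to 237, 233 and 205 CPM with si Ctrl and 254, 196 and 199 CPM with si mH2A1.1, which overlap.

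Totals ran from 36924252 to 42223108 counts per sample, so 3 counts, the smallest amount told from 0 here, were worth between 0.0691 and 0.0826 CPM. Intervals and floors given here cover counting error only. The cells carried the label of the source cell, myoblast, and the transcripts of myotubes: the 8 myotube markers summed to 15252, 13861 and 18916 CPM with si Ctrl and 13396, 13538 and 13734 CPM with si mH2A1.1. Each knockdown sum was a little below the lowest control, and the embryonic myosin Myh3 made up a large part of each sum. The median log2 ratios of the list to the control mean overlapped, at -0.12, -0.09 and 0.28 with si Ctrl and -0.10, -0.09 and -0.09 with si mH2A1.1. Of the 8, Myog alone passed, as lower. Every knockdown sample was above every control for 2 of the 8 and below for 2. Of 6 markers of undifferentiated myoblasts, Ccnd1 alone passed as higher, and their sums were 269.6, 269 and 227 against 483, 336 and 423 CPM. Most of each sum came from Ccnd1 and Mki67, which are genes of the cell cycle. The log2 fold change was above 0 for 4 of the 6 and below 0 for 2. Among the 6 markers of macrophages and leukocytes, Cd68 rose (log2 fold change 1.62, adjusted p = 0.00565), while Ptprc, Adgre1, Csf1r and Lyz2, which define those cells, were too low to be tested. The 6 summed to 3.99, 4.96 and 4.2 CPM with si Ctrl and 12.3, 7.11 and 12.9 CPM with si mH2A1.1. Markers of fibroblasts (Clec3b higher), smooth muscle (Tagln lower), osteoblasts (Runx2 lower) and endothelium (Tek higher) gave 1 call each, and those of adipocytes gave no call in edgeR at an adjusted p below 0.05 and 1 fall at an unadjusted p below 0.05. Their part in the results was not tested. In bulk RNA, fewer cells of a type and less RNA per cell cannot be told apart.

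Of the 19545 genes, 1208 rose with si mH2A1.1 (6.18%) and 963 fell (4.93%) at an adjusted p below 0.05. At the stricter limit of an adjusted p below 0.01 with a change of 0.8 or more on the log2 scale, 256 rose (1.31%) and 96 fell (0.491%). The median log2 fold change over all genes was -0.01. These percentages are the background against which the counts of each gene group are read. Every knockdown sample was above every control sample for 17.5% of the genes and below for 16.7%. The knockdown samples differed among themselves: replicate 2 was the lowest of the 3 for 35% of all genes and for 69.3% of the genes that rose. Without that sample 2928 genes passed instead of 2171, and without any 1 of the other 5 between 605 and 1524 passed.

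**Figure D1:**
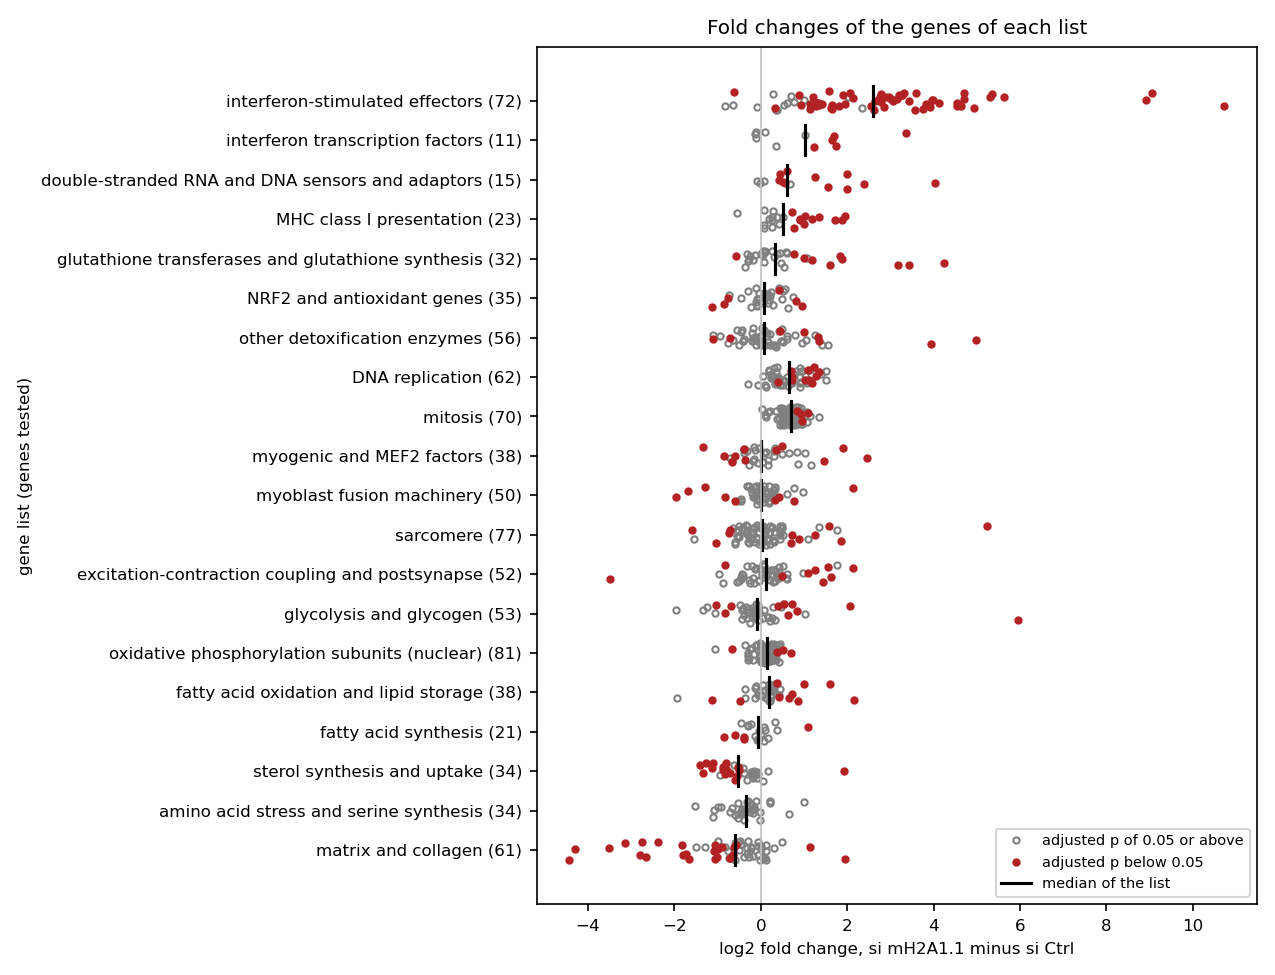
Log2 fold change of each tested gene (si mH2A1.1 minus si Ctrl, x axis) for 20 gene lists (y axis, genes tested in brackets). Filled points passed an adjusted p of 0.05, open points did not, and black bars mark the median of the list, which was 2.6 for interferon-stimulated effectors, 0.70 for mitosis, -0.52 for sterol genes and -0.59 for matrix genes.

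The largest rises were led by interferon-induced genes. Oas1g, Oas2 and Oas1a, which make the 2′-5′ oligoadenylate that activates RNase L, headed the genes of at least 1 CPM on average with an adjusted p below 0.01 whose groups did not overlap. They were followed by Gpnmb, Lrrc14b, Atp13a4, Eef1a2, Arfgef3, Mmp3, Lilrb4a, Mmp10 and Tpsab1. Gpnmb (ENSMUSG00000029816, chromosome 6, 49036546 to 49070929, plus strand), a transmembrane glycoprotein found on macrophages and melanocytes, was at 0.0803, 0.160 and 0.284 CPM with si Ctrl and 71.9, 16.9 and 45.8 CPM with si mH2A1.1 and at 0.193, 0.261 and 0.134 CPM with si mH2A1.2. It was close to undetected in the 6 samples without si mH2A1.1 and at 16.9 CPM or above in the 3 with it (log2 fold change 7.97, standard error 0.63, adjusted p = 0.00033). Lrrc14b, a leucine-rich repeat gene, was at 0.0268, 0.0799 and 0.103 CPM with si Ctrl and 14.3, 7.09 and 13.8 CPM with si mH2A1.1 (log2 fold change 7.32, standard error 0.44, adjusted p = 0.000167). Eef1a2, the form of the translation elongation factor eEF1A that replaces eEF1A1 in mature muscle and neurons, was at 5.33, 4.96 and 6.52 CPM with si mH2A1.1 against 0.0803, 0.0533 and 0 CPM with si Ctrl (log2 fold change 6.89, standard error 0.48, adjusted p = 0.000167). The stromelysins Mmp3 and Mmp10, neighbouring proteases on chromosome 9, reached 2.07, 0.692 and 4.65 CPM and 9.48, 1.14 and 5.25 CPM with si mH2A1.1. With si Ctrl, Mmp3 was at 0, 0 and 0.0773 CPM and Mmp10 at 0.107, 0.0799 and 0.0258 CPM. Tpsab1, a mast cell tryptase, was at 3.41, 0.766 and 2.21 CPM with si mH2A1.1 and at 0.0535, 0 and 0.0516 CPM with si Ctrl (log2 fold change 5.8, adjusted p = 0.00614). All 12 differed between the knockdowns, with adjusted p values from 4.17e-05 for Lrrc14b to 0.00509 for Oas1g.

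Within the same limits the 12 largest falls were Col8a2, Col11a1, Itga11, Cilp, Bmp4, Aspn, Rgcc, Postn, Lum, Itga10, Ptx3 and Ccbe1, most of them secreted or matrix-binding proteins. Cilp, a cartilage matrix protein, was at 13.9, 37.7 and 23.1 CPM with si Ctrl and 2.4, 4.32 and 1.87 CPM with si mH2A1.1 (log2 fold change -3.12, standard error 0.38, adjusted p = 0.00245). Aspn, a small leucine-rich proteoglycan, was at 52.9, 141 and 122 CPM with si Ctrl and 8.69, 19.4 and 12.7 CPM with si mH2A1.1 (log2 fold change -2.96, standard error 0.38, adjusted p = 0.0029). The groups were far apart for both. Among the falls outside the matrix itself, Bmp4, a secreted growth factor of the TGF-beta family that holds back myoblast differentiation, was at 5.51, 13.7 and 8.92 CPM with si Ctrl and 0.593, 1.56 and 1.45 CPM with si mH2A1.1 (log2 fold change -2.96, standard error 0.39, adjusted p = 0.00331). Rgcc, a cell cycle regulator that responds to complement, was at 5.06, 12.2 and 8.92 CPM with si Ctrl and 0.790, 1.56 and 1.11 CPM with si mH2A1.1 (log2 fold change -2.92, standard error 0.36, adjusted p = 0.00268). Each of the 12 was lower than with si mH2A1.2 in the direct test, the smallest log2 difference being -2.07 for Ptx3 (adjusted p = 0.0023). Outside these limits Fmod, a collagen-binding proteoglycan, was at 1.74, 5.81 and 2.01 CPM with si Ctrl and 0.148, 0.222 and 0.0691 CPM with si mH2A1.1 (log2 fold change -4.43, standard error 0.91, adjusted p = 0.0169), a larger fall with a less certain size. Of the 61 matrix and collagen genes tested, 23 fell and 2 rose, with a median log2 fold change of -0.59. The study chose matrix genes on these samples, so this count is not independent evidence. The other lists were also chosen with earlier results of these data known, so the same limit holds for their counts. Falls called without each sample in turn were 24, 12 and 15 without si Ctrl replicates 1, 2 and 3 and 13, 25 and 12 without si mH2A1.1 replicates 1, 2 and 3.

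Interferon-stimulated effectors were the group that moved furthest. Of 72 tested, 58 rose and 1 fell, and the median log2 fold change was 2.6. In 67 of them every knockdown sample was above every control sample, and 60 were higher than with si mH2A1.2. The count that rose was 53, 43 and 43 without si Ctrl replicates 1, 2 and 3 and 49, 64 and 44 without si mH2A1.1 replicates 1, 2 and 3, and 42 of the rises held in all 6 of these fits. Isg15 (ENSMUSG00000035692, chromosome 4, 156199424 to 156200818, minus strand), a ubiquitin-like protein that is attached to newly made proteins during the antiviral response, was at 2.22, 1.84 and 2.01 CPM with si Ctrl and 23.3, 13.5 and 48.7 CPM with si mH2A1.1. Replicate 3 was the highest and replicate 2 the lowest of the knockdown samples, and all 3 were far above the controls (log2 fold change 3.81, standard error 0.46, adjusted p = 0.00245). Ifit1 and Ifit3 (ENSMUSG00000074896, chromosome 19, 34583531 to 34588731, plus strand) bind viral RNA ends. Ifit1 was at 2.78, 3.17 and 2.32 CPM with si Ctrl and 24.1, 13.9 and 62.2 CPM with si mH2A1.1 (log2 fold change 3.6, standard error 0.47, adjusted p = 0.00339), and Ifit3 was at 1.58, 2.48 and 2.09 CPM with si Ctrl and 18.6, 9.66 and 65.2 CPM with si mH2A1.1 (log2 fold change 3.93, standard error 0.63, adjusted p = 0.00641). The same order of replicates was seen in both.

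The 2′-5′ oligoadenylate synthetases gave the largest fold changes of the group. Oas2 (ENSMUSG00000032690, chromosome 5, 120730333 to 120749853, minus strand) was at 0.187, 0.240 and 0.129 CPM with si Ctrl and 84.7, 29.3 and 185 CPM with si mH2A1.1 (log2 fold change 9.05, standard error 0.92, adjusted p = 0.00146). Oas1a (ENSMUSG00000052776, chromosome 5, 120896256 to 120907521, minus strand) had 1 or 2 counts in each control sample and was at 19.2, 4.79 and 31.5 CPM with si mH2A1.1, a ratio of 534 with an exact 95% interval from 208 to 1963 for counting error. Oas1g was at 0 in the controls and at 3.36, 0.988 and 12 CPM with si mH2A1.1, at least 68.7-fold higher than the mean CPM that 3 counts per library are worth in the controls. Oas1a and Oas1g are close copies that lie side by side on chromosome 5, and reads may have been split between them, so their single values are uncertain. With si mH2A1.2, Oas2 was at 1.4, 0.209 and 0.242 CPM and its change did not pass (log2 fold change 1.71, adjusted p = 0.56). The difference between the knockdowns did (log2 difference 7.34, adjusted p = 0.000428).

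Other effectors rose by smaller folds from higher levels. Usp18, the protease that removes ISG15 and restrains the interferon receptor, was at 0.482, 0.240 and 0.232 CPM with si Ctrl and 14.3, 4.84 and 28.4 CPM with si mH2A1.1 (log2 fold change 5.63, standard error 0.76, adjusted p = 0.00368). Ifi27l2a, of the ISG12 family, was at 1.1, 0.959 and 1.55 CPM with si Ctrl and 46.7, 22.5 and 73.7 CPM with si mH2A1.1 (log2 fold change 5.3, standard error 0.42, adjusted p = 0.00033). Gbp3, a guanylate-binding GTPase, was at 0.642, 0.213 and 0.438 CPM with si Ctrl and 11.3, 4.1 and 24.6 CPM with si mH2A1.1 (log2 fold change 4.94, standard error 0.72, adjusted p = 0.0046). In each of these 3 genes the lowest knockdown sample was replicate 2, and it was still many times the highest control. Rsad2 (viperin, which makes a chain-terminating nucleotide) was at 2.84, 2.03 and 1.75 CPM with si Ctrl and 13.4, 7.36 and 23.9 CPM with si mH2A1.1 (log2 fold change 2.75, adjusted p = 0.00461), and Mx1, a dynamin-like GTPase, was at 1.04, 0.853 and 0.309 CPM with si Ctrl and 4.25, 2.27 and 6.5 CPM with si mH2A1.1 (log2 fold change 2.56, adjusted p = 0.0195). The call of Mx1 was lost without si Ctrl replicate 2 or 3 or si mH2A1.1 replicate 1 or 3. Adar, the adenosine deaminase that edits double-stranded RNA, rose from 40.8, 33.9 and 35.5 to 77.4, 63.4 and 100.5 CPM (log2 fold change 1.13, adjusted p = 0.00854). PARP-family members of the response rose with them, namely Parp14 (log2 fold change 2.9, adjusted p = 0.00236), Parp9 (log2 fold change 1.66, adjusted p = 0.00645) and Parp12 (log2 fold change 1.43, adjusted p = 0.00738). Ifitm2, which blocks viral entry at membranes, was the 1 member that fell, from 79.8, 118 and 109.9 to 62.9, 72.5 and 66.3 CPM (log2 fold change -0.61, adjusted p = 0.0426), and that call was lost without si Ctrl replicate 2 or 3 or si mH2A1.1 replicate 1 or 3. Its neighbour Ifitm3 was at 96.6, 119.6 and 81.1 CPM with si Ctrl and 125, 128 and 181 CPM with si mH2A1.1 (log2 fold change 0.54, adjusted p = 0.0989).

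The promoters of the effectors were searched for the interferon-stimulated response element, written GAAANNGAAA and read on both strands, in the RefSeq promoters of the GRCm38.p6 build from 250 bases before to 50 after each start. The element was in 32 of 52 promoters (61.5%) of the effectors that rose, which matched 43 of their genes, and in 4 of 15 promoters (26.7%) of those that did not pass. Over all 32851 promoters the share was 3.44%. The list of effectors was drawn up from known interferon targets, so a high share was built into it. The promoter of Ifitm2, the effector that fell, held the element too. Among sensors of RNA and DNA it was in 4 of 8 promoters that rose and 0 of 4 that did not pass. The shares were 0 of 4 and 2 of 7 for interferon transcription factors, and 2 of 10 and 3 of 11 for MHC class I genes. A match is a run of letters and no measured binding. The windows of 4 effectors that rose are shown because they hold this element at the genes with the largest or best known rises, with the element in capitals on the strand of the gene.
Isg15, chr4:156200871-156200900, minus strand: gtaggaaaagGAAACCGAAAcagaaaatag
Oas1a, chr5:120907520-120907549, minus strand: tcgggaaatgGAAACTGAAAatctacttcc
Oas1g, chr5:120887606-120887635, minus strand: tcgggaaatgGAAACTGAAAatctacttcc
Ifit1, chr19:34640775-34640804, plus strand: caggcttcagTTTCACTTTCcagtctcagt
In Isg15, Oas1a and Oas1g the element reads as written, and in Ifit1 it is on the opposite strand, so it appears as its reverse complement. The windows of Oas1a and Oas1g hold the same letters.

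The sensors of double-stranded RNA and DNA and their adaptors stand upstream of these effectors in the pathway. They rose in 11 of 15 cases, with a median log2 fold change of 0.61. All samples were collected on day 4, so which genes rose first was not tested. Ifih1 (MDA5), the sensor of long double-stranded RNA, was at 4.93, 4.74 and 4.05 CPM with si Ctrl and 16.6, 11.5 and 27 CPM with si mH2A1.1 (log2 fold change 2.0, standard error 0.28, adjusted p = 0.00415). Ddx58 (RIG-I), which reads short RNA with a 5′ triphosphate, was at 21.9, 27.7 and 19.9 CPM with si Ctrl and 62.4, 48 and 93.7 CPM with si mH2A1.1 (log2 fold change 1.55, standard error 0.23, adjusted p = 0.00461). Tlr3, the endosomal receptor of double-stranded RNA, was at 2.6, 1.49 and 1.96 CPM with si Ctrl and 8.89, 5.38 and 9.98 CPM with si mH2A1.1 (log2 fold change 2.0, standard error 0.29, adjusted p = 0.00441). None of the 3 overlapped with its controls. Zbp1, a sensor of Z-form nucleic acid, was at 1.1, 0.346 and 0.980 CPM with si Ctrl and 8.27, 4.89 and 26.4 CPM with si mH2A1.1 (log2 fold change 4.02, adjusted p = 0.00671), Dhx58 (LGP2) rose by 2.38 and Eif2ak2, the kinase PKR that stops translation on double-stranded RNA, by 1.27 on the log2 scale. The shared adaptor Mavs, through which Ifih1 and Ddx58 signal, was at 39.4, 41.9 and 42.7 CPM with si Ctrl and 41.2, 40.0 and 36.4 CPM with si mH2A1.1 and the groups overlapped (log2 fold change -0.08, adjusted p = 0.673). The DNA sensor Cgas did not pass (log2 fold change 0.68, adjusted p = 0.127), and its partner Tmem173 (STING) did (log2 fold change 0.61, adjusted p = 0.0353). Rises called without each sample in turn were 7, 5 and 7 without si Ctrl replicates 1, 2 and 3 and 7, 12 and 7 without si mH2A1.1 replicates 1, 2 and 3.

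Of the interferons themselves and their receptors, 8 of 18 had enough counts to be tested. Ifnb1, the beta interferon made first by sensing cells, was at 0, 0 and 0 CPM with si Ctrl and at 0.0741, 0 and 0.0230 CPM with si mH2A1.1, at or below 3 counts in each sample, so a level of it was not detectable at this depth. The receptor chain of the type I interferons, Ifnar1, was at 59.3, 67 and 52.2 CPM with si Ctrl and 61, 64.6 and 57.2 CPM with si mH2A1.1, and its groups overlapped (log2 fold change 0.03, adjusted p = 0.856). Ifnar2, the other chain, was at 27.1, 29.3 and 25.8 CPM with si Ctrl and 22, 24.5 and 21.6 CPM with si mH2A1.1 (log2 fold change -0.27, adjusted p = 0.107). The genes that passed were 3. Il10rb, a chain shared by the receptors of IL-10 and of interferon lambda, rose from 17.4, 18.4 and 14.9 to 24.7, 25.2 and 25 CPM (log2 fold change 0.56, adjusted p = 0.0131). Ifngr2, a chain of the receptor of interferon gamma (log2 fold change -0.58, adjusted p = 0.0403), and Tyk2, a kinase bound to Ifnar1 (log2 fold change -0.45, adjusted p = 0.0416), fell. Il10rb lost its call without replicate 3 of either group, and Ifngr2 and Tyk2 lost theirs without replicate 3 of either group, without si Ctrl replicate 2 or without si mH2A1.1 replicate 1, and Tyk2 also without si Ctrl replicate 1.

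The transcription factors of the response stood between the sensors and the effectors in size, with a median log2 fold change of 1.03 over 11 genes. Irf7 (ENSMUSG00000025498, chromosome 7, 141262706 to 141266481, minus strand), which amplifies the production of interferon, was at 1.93, 2.05 and 2.11 CPM with si Ctrl and 16.1, 10.6 and 35.9 CPM with si mH2A1.1 (log2 fold change 3.36, standard error 0.44, adjusted p = 0.00329). Irf9, the DNA-binding part of the complex ISGF3, was at 15.7, 12.7 and 12.8 CPM with si Ctrl and 44.1, 30.1 and 59.6 CPM with si mH2A1.1 (log2 fold change 1.7, standard error 0.25, adjusted p = 0.00453). All 3 knockdown samples exceeded the controls in both genes, again with replicate 3 on top. Stat2, a partner of Irf9 in that complex, was at 56.3, 53.7 and 45.5 CPM with si Ctrl and 60.8, 58.5 and 80.3 CPM with si mH2A1.1 and did not pass although its groups did not overlap (log2 fold change 0.36, adjusted p = 0.155). Irf3, the factor that the sensors activate by phosphorylation, was at 33.5, 30.0 and 30.8 CPM with si Ctrl and 30.8, 28.3 and 26.5 CPM with si mH2A1.1 (log2 fold change -0.14, adjusted p = 0.476). Nmi, which binds STAT factors, rose as well (log2 fold change 1.66), and in all 5 of 11 passed. Among these 5, the test between the knockdowns passed for each, the smallest log2 difference being 1.5 for Irf9 (adjusted p = 0.00268).

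**Figure D2:**
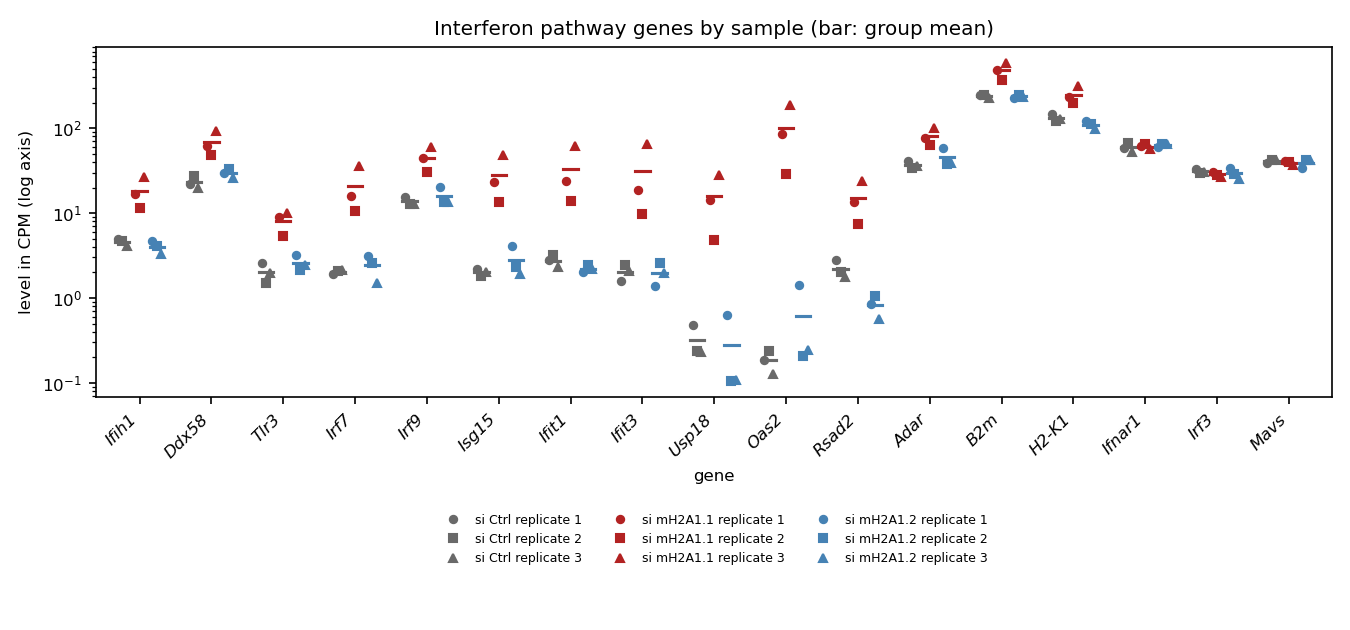
Level in CPM (log axis) of 17 genes of the interferon pathway (x axis) in each of the 9 samples, with the group mean as a bar, and grey for si Ctrl, red for si mH2A1.1 and blue for si mH2A1.2. For Isg15 the si mH2A1.1 samples were at 23.3, 13.5 and 48.7 CPM and the si Ctrl samples at 2.22, 1.84 and 2.01 CPM, while the points of Ifnar1, Irf3 and Mavs overlap.

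Genes that load peptides on MHC class I moved less than the effectors but in the same direction. Of 23 tested, 11 rose, with a median log2 fold change of 0.51. B2m, the invariant light chain, was at 245, 244 and 229.7 CPM with si Ctrl and 489.7, 373 and 588 CPM with si mH2A1.1 (log2 fold change 1.01, standard error 0.15, adjusted p = 0.0046). The heavy chains H2-K1 (log2 fold change 0.90, adjusted p = 0.0105), H2-D1 (log2 fold change 0.71, adjusted p = 0.00845) and H2-Q4 (log2 fold change 1.18, adjusted p = 0.00872) rose too, and H2-K1 was at 147, 123 and 127 CPM with si Ctrl and 234, 197 and 312 CPM with si mH2A1.1. The groups did not overlap for either gene. Nlrc5, the transactivator of these genes, was at 11.8, 8.07 and 4.74 CPM with si Ctrl and 29.9, 20.8 and 31 CPM with si mH2A1.1 (log2 fold change 1.73, standard error 0.33, adjusted p = 0.0127). Tap1, which carries peptides into the endoplasmic reticulum, and Psmb10, a subunit of the immunoproteasome, rose by 1.36 and 1.02, and H2-T24 by 1.87. Heavy-chain genes of this family share sequence, so reads may have been split between them. The calls of B2m, H2-D1 and H2-Q4 were kept in all 6 fits with 1 sample left out, and the count that rose was 7, 4 and 6 without si Ctrl replicates 1, 2 and 3 and 8, 15 and 4 without si mH2A1.1 replicates 1, 2 and 3. Among 27 chemokines and cytokines, Lif, a cytokine that myotubes release, rose from 9.05, 9.51 and 10.4 to 19, 14.4 and 20.9 CPM (log2 fold change 0.91, adjusted p = 0.0155) and was likewise high with si mH2A1.2 at 17.9, 15.9 and 24.3 CPM. Il1b also passed, at a low level (0.348, 0.373 and 0.206 against 1.46, 1.26 and 1.13 CPM). These 2 rises are a share near the background of 6.18%, and neither call held in all fits with 1 sample left out, Il1b keeping it only without si mH2A1.1 replicate 2 and Lif losing it without si Ctrl replicate 2 or si mH2A1.1 replicate 1 or 3. Cxcl10 and Ccl5, chemokines of the interferon response, did not pass (log2 fold change 1.2, adjusted p = 0.0814 and log2 fold change 1.41, adjusted p = 0.118).

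Detoxification genes were led by the alpha class of glutathione transferases, which join glutathione to reactive lipid aldehydes. Gsta2 (ENSMUSG00000057933, chromosome 9, 78331018 to 78355788, minus strand) was at 1.79, 1.79 and 0.438 CPM with si Ctrl and 34.7, 14.8 and 26.2 CPM with si mH2A1.1 (log2 fold change 4.24, standard error 0.49, adjusted p = 0.00227). Gsta1 was at 2.09, 1.76 and 1.13 CPM with si Ctrl and 24, 8.2 and 21.4 CPM with si mH2A1.1 (log2 fold change 3.43, standard error 0.45, adjusted p = 0.00346). These nearly identical genes may share reads, so their single values are uncertain. Gsta4 (ENSMUSG00000032348, chromosome 9, 78182774 to 78209349, plus strand), the form most active on 4-hydroxynonenal, was at 28.5, 36.3 and 30.0 CPM with si Ctrl and 132, 63.7 and 90.9 CPM with si mH2A1.1 (log2 fold change 1.6, standard error 0.27, adjusted p = 0.00761). Gsta3 was at 0.268, 0.187 and 0.361 CPM with si Ctrl and 3.51, 1.65 and 2.3 CPM with si mH2A1.1 (log2 fold change 3.18, adjusted p = 0.00242). In each of the 4 the lowest knockdown sample was replicate 2, at more than the highest control. Mgst1, a membrane-bound transferase (log2 fold change 1.88, adjusted p = 0.00429), and Ggt5, which cleaves glutathione conjugates (log2 fold change 1.83, adjusted p = 0.0124), rose with them, and Gstz1, of tyrosine breakdown, fell (log2 fold change -0.57, adjusted p = 0.0146). Altogether 9 of 32 rose and 1 fell, with a median of 0.34. The 9 rises were led by genes of conjugation, while Gclc and Gclm, the subunits of the enzyme that limits glutathione synthesis, did not pass (log2 fold change 0.44, adjusted p = 0.0827 and log2 fold change 0.54, adjusted p = 0.0742). Gclc was at 33.7, 34.7 and 33.5 CPM with si Ctrl and 56.3, 35.7 and 46.1 CPM with si mH2A1.1. Of the rises, 7 were kept in all 6 fits with 1 sample left out, those of the 6 genes named here and of Gstm2.

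The alpha class differed between the knockdowns. With si mH2A1.2, Gsta2 was at 0.606, 0.992 and 0.457 CPM, Gsta1 at 0.275, 0.913 and 0.457 CPM and Gsta4 at 19.1, 34.8 and 24.4 CPM, and the direct test between the knockdowns gave log2 differences of 5.2, 5.01 and 1.87 (adjusted p = 0.0003, 0.000308 and 0.0016). The promoters were searched for the antioxidant response element, written TGACNNNGC and read on both strands. It was in 4 of 9 promoters (44.4%) of the glutathione genes that rose, which matched 7 of their genes, against 12.4% of all promoters. Of those that did not pass, 2 of 24 (8.33%) held it, and of those that fell 0 of 2. In the list of NRF2 and antioxidant genes it was in 2 of 3 promoters that rose, 0 of 3 that fell and 9 of 35 that did not pass. The lists were drawn up from known genes of these pathways, so a share above that of all promoters may be built into them. The window of Gsta3 is shown with the element in capitals.
Gsta3, chr1:21240454-21240482, plus strand: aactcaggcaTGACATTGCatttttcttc

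NRF2 is the factor that binds this element, and its activity was not tested. The list of NRF2 and antioxidant genes, from which the glutathione genes above were kept apart, did not follow as a group. Of 35 tested, 3 rose and 3 fell (8.57% each, against 6.18% and 4.93% of all genes), with a median of 0.08. Prdx1, a peroxiredoxin, was at 265, 261 and 238 CPM with si Ctrl and 585, 357 and 396 CPM with si mH2A1.1 (log2 fold change 0.81, standard error 0.17, adjusted p = 0.0162), Srxn1, which repairs it, rose by 0.95 and Gpx1 by 0.43 on the log2 scale. The falls were Tkt, of the pentose phosphate pathway (log2 fold change -1.13, adjusted p = 0.0178), Fth1, the heavy chain of ferritin (log2 fold change -0.84, adjusted p = 0.0241), and Sod3, the secreted superoxide dismutase (log2 fold change -0.75, adjusted p = 0.018). Nqo1, often read as the reporter of NRF2, was at 10.1, 16.5 and 11.7 CPM with si Ctrl and 15.2, 9.14 and 11.7 CPM with si mH2A1.1 and overlapped (log2 fold change -0.09, adjusted p = 0.854). Hmox1 (log2 fold change 0.63, adjusted p = 0.196), Txnrd1 (log2 fold change 0.51, adjusted p = 0.0516) and Nfe2l2 itself (log2 fold change 0.06, adjusted p = 0.755) did not pass. None of the 6 calls held in all fits with 1 sample left out, the rises being 1, 0 and 0 without si Ctrl replicates 1, 2 and 3 and 1, 5 and 1 without si mH2A1.1 replicates 1, 2 and 3. Of 56 other detoxification enzymes, 6 rose and 2 fell (10.7% and 3.57%, against 6.18% and 4.93% of all genes). Akr1c14 (log2 fold change 1.36, adjusted p = 0.0297), a hydroxysteroid reductase, Adh1 (log2 fold change 1.32, adjusted p = 0.0158), of retinol and ethanol oxidation, and Akr7a5 (log2 fold change 0.44, adjusted p = 0.0344) were among the rises, and Cyp2d22 (log2 fold change -1.11, adjusted p = 0.0311) and Ugt1a6a (log2 fold change -0.72, adjusted p = 0.0153) were the falls. The rises were 3, 2 and 2 without si Ctrl replicates 1, 2 and 3 and 3, 5 and 4 without si mH2A1.1 replicates 1, 2 and 3, and the falls were 2, 1 and 0 without si Ctrl replicates 1, 2 and 3 and 0, 6 and 0 without si mH2A1.1 replicates 1, 2 and 3. The calls kept in all of these fits were those of Aldh1a7 and Ces1d, both below 1 CPM on average and named after their values were seen, while Akr1c14 kept its call only without si mH2A1.1 replicate 2 and Akr7a5 in none. The first exons of Ugt1a genes share their remaining exons, which can split reads.

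Genes of cell division were higher with si mH2A1.1 on balance. Few passed singly in edgeR's fit, which took no account of replicate number, and more passed when the number was put in the model. Of 62 genes of DNA replication, 11 rose, 60 had a log2 fold change above 0, against 49.1% of all genes, and the median was 0.66. Of 70 genes of mitosis, 4 rose (5.71%, where 6.18% of all genes rose), 70 were above 0 and the median was 0.70. Every knockdown sample was above every control for 9 of the 62 replication genes and 19 of the 70 mitosis genes, where 17.5% of all genes were. At an unadjusted p below 0.05 the rises were 37 and 56, where 15.4% of all genes rose, and DESeq2 called 30 and 32 rises. The samples were spread widely. The median over mitosis genes of the log2 ratio to the control mean was 1.13, 0.18 and 0.63 in si mH2A1.1 replicates 1, 2 and 3 and 0.29, 0.00 and -0.28 in the controls. Replicate 2 thus lay inside the range of the controls and replicates 1 and 3 above it. For replication genes the medians were 0.94, 0.05 and 0.73 and 0.27, -0.05 and -0.24. Without replicate 2 the rises were 41 of replication and 44 of mitosis. In turn, the replication rises were 17, 0 and 0 without si Ctrl replicates 1, 2 and 3 and 0, 41 and 1 without si mH2A1.1 replicates 1, 2 and 3, and the mitosis rises were 5, 0 and 0 without si Ctrl replicates 1, 2 and 3 and 0, 44 and 0 without si mH2A1.1 replicates 1, 2 and 3. None of the calls held in every one of these fits.

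Mki67, present in every phase of the cycle and lost on exit, was at 124, 101 and 82.6 CPM with si Ctrl and 250.4, 125 and 184 CPM with si mH2A1.1 and did not pass (log2 fold change 0.86, standard error 0.26, adjusted p = 0.0586). Knockdown replicate 2 was just above the highest control, and the other two were well above. Plk1, a kinase of mitotic entry, was at 15.8, 12 and 9.44 CPM with si Ctrl and 38.2, 18.3 and 22.7 CPM with si mH2A1.1 (log2 fold change 1.09, standard error 0.29, adjusted p = 0.0417). Birc5 (survivin) was at 21.1, 16.9 and 14.3 CPM with si Ctrl and 48.7, 22.7 and 30.7 CPM with si mH2A1.1 (log2 fold change 0.96, adjusted p = 0.0445), and the kinesins Kif11 and Kif23 passed too (log2 fold change 0.94, adjusted p = 0.0389 and log2 fold change 0.85, adjusted p = 0.0469). Cdk1 (log2 fold change 0.75, adjusted p = 0.0958) and Ccnb1 (log2 fold change 0.55, adjusted p = 0.2), the kinase and the cyclin of mitotic entry, did not, and replicate 2 of Cdk1 lay among the controls (99.5, 40.3 and 62.1 against 47, 41.8 and 31.5 CPM). In replication, Mcm3, a subunit of the helicase, was at 22.4, 12.1 and 11.9 CPM with si Ctrl and 52.1, 20.4 and 39.4 CPM with si mH2A1.1 (log2 fold change 1.27, adjusted p = 0.0426) and E2f2, an E2F transcription factor, at 63.1, 37.7 and 46.2 CPM with si Ctrl and 141, 94.2 and 82 CPM with si mH2A1.1 (log2 fold change 1.11, adjusted p = 0.0293). Gins2 (1.23), Pole (1.18) and Tyms (1.09), the thymidylate synthase, rose too. Pcna, the sliding clamp, did not pass (log2 fold change 0.62, adjusted p = 0.0911). Against si mH2A1.2 the calls were more, 37 of 62 for replication and 64 of 70 for mitosis, where 12% of all genes were higher. The median log2 fold change of si mH2A1.2 against si Ctrl was -0.40 over mitosis genes.

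Searching the replication promoters for the E2F element TTTCCCGC on both strands found it in 2 of 9 (22.2%) of those that rose and in 7 of 49 (14.3%) of those that did not pass, against 1.07% of all promoters. The second form, TTTGGCGC, was in 3 of 9 (33.3%) and 7 of 49 (14.3%), against 0.514% of all. In mitosis promoters the first form was in 0 of 4 that rose and 2 of 58 that did not pass. The second was in 0 of 4 and 3 of 58. The lists were drawn up from known genes of cell division, so a share above that of all promoters may be built into them. The promoter of Mcm3 held both, and its window for the second form is given with the element in capitals, ending at the edge of the stretch searched.
Mcm3, chr1:20820263-20820284, minus strand: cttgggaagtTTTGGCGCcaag

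Genes of cell-cycle exit and of the p53 response gave 3 rises and 1 fall among 41 (7.32% and 2.44%, against 6.18% and 4.93% of all genes). Ccnd1 (cyclin D1), which drives the G1 phase and is switched off in myotubes, was at 74.2, 93.1 and 82.8 CPM with si Ctrl and 152, 132 and 167 CPM with si mH2A1.1 (log2 fold change 0.85, standard error 0.14, adjusted p = 0.00613), and its call was kept with any 1 sample left out. Cdkn1a (p21), the inhibitor that marks exit from the cycle, was at 488, 574 and 747 CPM with si Ctrl and 762, 703 and 688 CPM with si mH2A1.1, and its groups overlapped (log2 fold change 0.25, adjusted p = 0.405). Cdkn1c (p57) was at 7.25, 7.81 and 4.0 CPM with si Ctrl and 39, 19.1 and 8.34 CPM with si mH2A1.1, higher in all 3 knockdown samples but so variable that it did not pass (log2 fold change 1.8, standard error 0.53, adjusted p = 0.0534). The p53 targets Phlda3 and Gadd45a went in opposite directions (log2 fold change 0.48, adjusted p = 0.0262 and log2 fold change -0.54, adjusted p = 0.0332). Both calls were kept only without si mH2A1.1 replicate 2.

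**Figure D3:**
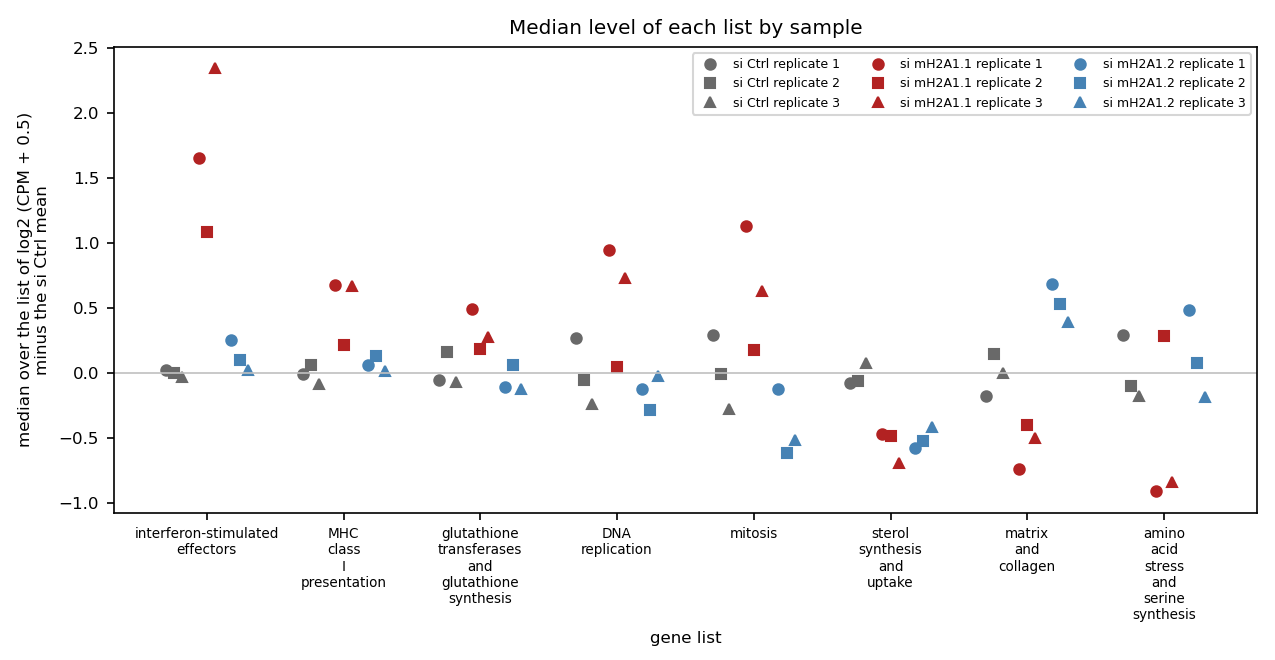
Median over each of 8 gene lists (x axis) of the log2 ratio of each sample to the si Ctrl mean, with 0.5 CPM added (y axis), and 3 markers for replicates 1, 2 and 3. Replicate 2 of si mH2A1.1 was nearest to the controls for interferon-stimulated effectors (1.66, 1.08 and 2.34), replication (0.94, 0.05 and 0.73) and mitosis (1.13, 0.18 and 0.63), and on the other side of 0 for amino acid stress genes (-0.91, 0.28 and -0.83).

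Muscle genes moved in both directions. Of 38 myogenic and MEF2 factors, 5 rose and 6 fell (13.2% and 15.8%, against 6.18% and 4.93% of all genes), with a median of 0.00. The factors of the MyoD family parted. Myf6 (MRF4; ENSMUSG00000035923, chromosome 10, 107492853 to 107494737, minus strand), the member expressed in mature fibres, was at 4.26, 3.46 and 3.35 CPM with si Ctrl and 12.3, 15 and 14.1 CPM with si mH2A1.1 (log2 fold change 1.9, standard error 0.15, adjusted p = 0.000347) and at 1.27, 1.17 and 1.1 CPM with si mH2A1.2. Myog (myogenin), which starts terminal differentiation, was at 624, 628 and 745 CPM with si Ctrl and 442, 484 and 337 CPM with si mH2A1.1 (log2 fold change -0.66, standard error 0.14, adjusted p = 0.0204). Myod1 was at 86.1, 60.9 and 88.5 CPM with si Ctrl and 90.7, 91.8 and 73.7 CPM with si mH2A1.1 and its groups overlapped (log2 fold change 0.12, adjusted p = 0.661). So Myf6 rose, Myog fell, and neither group of samples overlapped with its controls for these 2 genes. Msc (musculin, MyoR), a repressor of MyoD targets, was at 2.97, 2.88 and 1.86 CPM with si Ctrl and 20.8, 7.24 and 14.7 CPM with si mH2A1.1 (log2 fold change 2.47, standard error 0.42, adjusted p = 0.00776), and Hey1, a target of Notch that also holds back myogenesis, was at 17.2, 6.9 and 10.2 CPM with si Ctrl and 43.6, 28.2 and 22.6 CPM with si mH2A1.1 (log2 fold change 1.46, adjusted p = 0.0229). Eya4, a coactivator of homeobox factors in muscle, was at 86.4, 87.7 and 98.1 CPM with si Ctrl and 44.7, 50.6 and 54.6 CPM with si mH2A1.1 (log2 fold change -0.86, standard error 0.10, adjusted p = 0.00218), and Tcf4 fell by 0.59 on the log2 scale (adjusted p = 0.0397). Mef2a, a MEF2 factor present throughout differentiation, was at 334, 294 and 334 CPM with si Ctrl and 446, 470.1 and 446 CPM with si mH2A1.1 (log2 fold change 0.50, adjusted p = 0.0176). The calls of Myf6, Msc and Eya4 were kept with any 1 sample left out, and the others were not.

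The machinery of fusion gave 4 rises and 5 falls of 50, near the background share, with a median of 0.01. Mymk (myomaker), the membrane protein that starts the merging of membranes, was at 471, 504 and 660.4 CPM with si Ctrl and 556, 564 and 496 CPM with si mH2A1.1 and overlapped (log2 fold change -0.02, adjusted p = 0.955). Mymx (myomixer), the micropeptide that completes it, was at 54.8, 79.1 and 88.7 CPM with si Ctrl and 41.3, 48.7 and 35.8 CPM with si mH2A1.1 (log2 fold change -0.82, standard error 0.18, adjusted p = 0.0221), lower in each knockdown sample than in each control, a call lost without si Ctrl replicate 2 or 3 or si mH2A1.1 replicate 1 or 3. Ano5, a membrane protein whose loss causes a muscular dystrophy, was at 18.8, 8.15 and 11.3 CPM with si Ctrl and 65, 53.9 and 48.3 CPM with si mH2A1.1 (log2 fold change 2.13, standard error 0.45, adjusted p = 0.0185), and Anxa1, of membrane repair, at 410.00, 454 and 372 CPM with si Ctrl and 817, 615 and 693 CPM with si mH2A1.1 (log2 fold change 0.78, standard error 0.13, adjusted p = 0.00723). Rapgef3, the cAMP sensor EPAC1, was at 4.98, 11 and 7.66 CPM with si Ctrl and 1.83, 1.83 and 2.35 CPM with si mH2A1.1 (log2 fold change -1.97, standard error 0.30, adjusted p = 0.00526). Nfatc2, which governs the second phase of fusion, fell from 6.61, 10.1 and 7.12 to 1.19, 3.38 and 2.83 CPM (log2 fold change -1.68, adjusted p = 0.021), and the adhesion molecule Kirrel3 from 6.21, 8.02 and 8.15 to 1.8, 3.75 and 3.59 CPM (log2 fold change -1.29, adjusted p = 0.0131). The calls of Anxa1 and Rapgef3 were kept with any 1 sample left out. Those of Ano5 and Nfatc2 were lost in the same 4 fits as that of Mymx, and that of Kirrel3 without si Ctrl replicate 2. The rises were 2, 1 and 1 without si Ctrl replicates 1, 2 and 3 and 1, 6 and 1 without si mH2A1.1 replicates 1, 2 and 3, and the falls were 5, 1 and 2 without si Ctrl replicates 1, 2 and 3 and 2, 4 and 2 without si mH2A1.1 replicates 1, 2 and 3.

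Of 77 sarcomere genes 7 rose and 4 fell, against 6.18% and 4.93% of all genes, with a median of 0.03. The adult fast myosins Myh4 (IIb) and Myh1 (IIx) were higher, at 50.2, 31.2 and 65.2 CPM with si Ctrl and 140.1, 139.9 and 155 CPM with si mH2A1.1 (log2 fold change 1.57, standard error 0.31, adjusted p = 0.0142) and at 611, 263 and 646 CPM with si Ctrl and 977, 1214 and 1451 CPM with si mH2A1.1 (log2 fold change 1.26, standard error 0.33, adjusted p = 0.0378). Myh3, the embryonic isoform, was lower in all 3 samples and did not pass (7063, 5214 and 8065 CPM with si Ctrl and 4305, 4571 and 5143 CPM with si mH2A1.1, log2 fold change -0.54, standard error 0.18, adjusted p = 0.0753). Myh6, the cardiac alpha isoform, was at 36.3, 29.2 and 60.2 CPM with si Ctrl and 5.46, 16 and 20.0 CPM with si mH2A1.1 (log2 fold change -1.6, standard error 0.40, adjusted p = 0.0327) and the embryonic and atrial light chain Myl4 at 963, 1005 and 1458 CPM with si Ctrl and 392, 651 and 617 CPM with si mH2A1.1 (log2 fold change -1.05, standard error 0.22, adjusted p = 0.0182). Myosin heavy chain genes share sequence, so reads may have been split between them. Mybpc1, the slow form of myosin-binding protein C (log2 fold change 0.88, adjusted p = 0.0305), rose, Actn2, of the Z disc, fell (log2 fold change -0.74, adjusted p = 0.0125), and Acta1, skeletal actin, overlapped (2741, 3644 and 4479 against 3365, 3485 and 3419.8 CPM). Ckmt2 (ENSMUSG00000021622, chromosome 13, 91853387 to 91876885, minus strand), the sarcomeric creatine kinase of mitochondria, stood apart from all of these. It was at 1.58, 0.693 and 0.773 CPM with si Ctrl and 43.8, 31.8 and 38.9 CPM with si mH2A1.1 (log2 fold change 5.23, standard error 0.34, adjusted p = 0.000167), at 0.853, 0.365 and 0.403 CPM with si mH2A1.2, and its call was the 1 of this list that was kept with any 1 sample left out. That of Myh1 was lost in each of these fits, and the rises were 3, 1 and 4 without si Ctrl replicates 1, 2 and 3 and 2, 8 and 1 without si mH2A1.1 replicates 1, 2 and 3. Against si mH2A1.2, 35 were higher and 4 lower, where 12% and 10.5% of all genes were, while si mH2A1.2 itself gave 12 falls against si Ctrl, where 0.982% of all genes fell and 1.37% rose.

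Calcium handling and excitability gave 7 rises and 2 falls of 52 in edgeR, and DESeq2 called 9 and 8, so the balance between them depended on the test. The edgeR calls are 13.5% and 3.85% of the list, against 6.18% and 4.93% of all genes. Atp2a2, the calcium pump SERCA2 of slow and cardiac muscle, was at 934, 739 and 958 CPM with si Ctrl and 1617, 1777 and 2262 CPM with si mH2A1.1 (log2 fold change 1.1, standard error 0.16, adjusted p = 0.00461). Pln (phospholamban), which inhibits that pump, was at 0.402, 0.346 and 0.284 CPM with si Ctrl and 0.766, 1.78 and 2.03 CPM with si mH2A1.1 (log2 fold change 2.14, standard error 0.37, adjusted p = 0.00886). Pvalb, the calcium buffer of fast fibres, was at 3.48, 1.63 and 3.66 CPM with si Ctrl and 8.25, 8.69 and 10.3 CPM with si mH2A1.1 (log2 fold change 1.63, standard error 0.27, adjusted p = 0.00748) and went the other way with si mH2A1.2, to 0.330, 0.470 and 0.376 CPM (log2 fold change -2.89, adjusted p = 0.00631). The pump, its inhibitor and the buffer were thus higher together in all 3 samples. Scn4a, the sodium channel of adult muscle, fell (44.3, 40.7 and 62.3 to 24.9, 29.8 and 27.7 CPM, log2 fold change -0.84, adjusted p = 0.0201). Cacna1g, a T-type calcium channel below 1 CPM on average and named after its values were seen, was at 1.66, 1.84 and 1.7 CPM with si Ctrl and 0.0741, 0.173 and 0.207 CPM with si mH2A1.1 (log2 fold change -3.48, standard error 0.43, adjusted p = 0.00268). Dok7, which activates the kinase MuSK at the synapse, rose by 1.26, and the potassium channel Kcnj12 by 1.56 on the log2 scale. Ryr1 (log2 fold change 0.13, adjusted p = 0.751) and Cacna1s (log2 fold change -0.54, adjusted p = 0.089), the calcium release channel and its voltage sensor, did not pass. The calls of Atp2a2, Cacna1g, Pln and Pvalb were kept with any 1 sample left out.

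**Figure D4:**
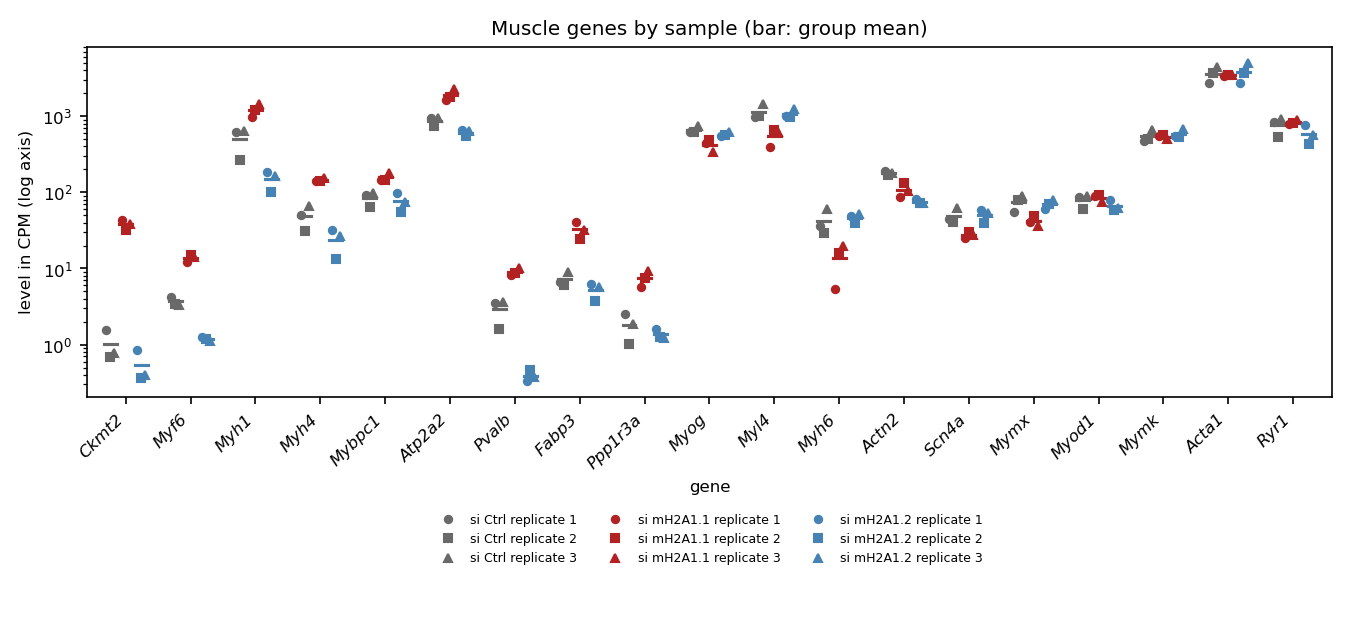
Level in CPM (log axis) of 19 muscle genes (x axis) in each of the 9 samples, with the group mean as a bar. For Ckmt2 the si mH2A1.1 samples (red) were at 43.8, 31.8 and 38.9 CPM and the si Ctrl samples (grey) at 1.58, 0.693 and 0.773 CPM, for Myog they were below the controls, and for Mymk, Myod1, Acta1 and Ryr1 the red and grey points overlap.

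Sterol synthesis was the metabolic list that moved as a block. Of 34 genes 16 fell and 1 rose, with a median of -0.52, and 22 had every knockdown sample below every control, against 16.7% of all genes. The per-sample medians were -0.46, -0.48 and -0.69 with si mH2A1.1 and -0.07, -0.06 and 0.08 with si Ctrl, so all 3 replicates showed it. Hmgcs1, which makes HMG-CoA, was at 350.4, 346 and 414 CPM with si Ctrl and 213, 204 and 186 CPM with si mH2A1.1 (log2 fold change -0.88, standard error 0.15, adjusted p = 0.00748). Lss, which closes the rings of lanosterol, was at 98.9, 87.6 and 105 CPM with si Ctrl and 43.5, 40.9 and 37.1 CPM with si mH2A1.1 (log2 fold change -1.26, standard error 0.13, adjusted p = 0.00189), and Dhcr7, the last step, was at 114, 110.5 and 143 CPM with si Ctrl and 46.9, 66.8 and 53.1 CPM with si mH2A1.1 (log2 fold change -1.14, standard error 0.14, adjusted p = 0.00269). Each knockdown sample was below each control in all 3. Tm7sf2 (log2 fold change -1.41, adjusted p = 0.00352), Mvd (log2 fold change -1.33, adjusted p = 0.0134) and Acat2 (log2 fold change -1.11, adjusted p = 0.0273) were the others with the largest falls. Sqle, the squalene epoxidase, did not pass (log2 fold change -0.06, adjusted p = 0.8), nor did Srebf2, the factor that activates these genes (log2 fold change -0.20, adjusted p = 0.261). Abca1, a target of the sterol-activated receptor LXR that exports cholesterol, rose from 2.3, 2.85 and 2.78 to 9.56, 6.59 and 14.2 CPM (log2 fold change 1.93, standard error 0.28, adjusted p = 0.00453). Falls called without each sample in turn were 13, 8 and 8 without si Ctrl replicates 1, 2 and 3 and 11, 13 and 7 without si mH2A1.1 replicates 1, 2 and 3, and 7 falls and the rise of Abca1 were kept in all of them.

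This fall was seen with both siRNAs. With si mH2A1.2, 10 of the 34 fell against the same si Ctrl samples, where 0.982% of all genes fell, with a median of -0.53. The controls are shared, so an error in them would move both comparisons alike. The direct test between the knockdowns gave 3 genes higher and 5 lower, a share near the background of 12% and 10.5%, and a median difference of 0.00. Lss was at 40.2, 48.7 and 57.5 CPM and Dhcr7 at 58.2, 62.8 and 62.3 CPM with si mH2A1.2, and neither differed between the knockdowns past the limit (log2 difference -0.27, adjusted p = 0.174 and log2 difference -0.14, adjusted p = 0.53). Sqle did (log2 difference 0.52, adjusted p = 0.0208), being lower with si mH2A1.2. The sterol regulatory element, written TCACNCCAC and read on both strands, was in 1 of 16 promoters (6.25%) of the sterol genes that fell, that of Hmgcs1, and in 1.24% of all promoters. Its window is shown with the element in capitals.
Hmgcs1, chr13:119690204-119690232, plus strand: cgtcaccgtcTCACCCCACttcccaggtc

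**Figure D5:**
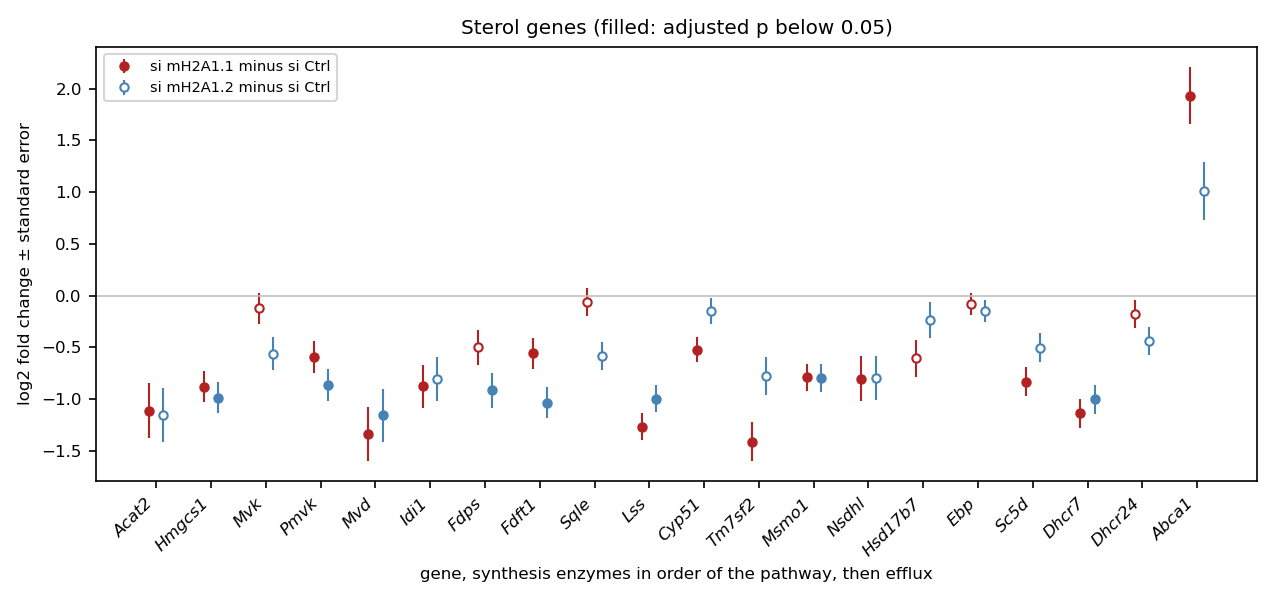
Log2 fold change with its standard error (y axis) of the sterol synthesis enzymes shown, in pathway order, then Abca1 (x axis), for si mH2A1.1 (red) and si mH2A1.2 (blue) against the same si Ctrl samples, filled where the adjusted p was below 0.05. Lss was at -1.26 with si mH2A1.1 and Sqle at -0.06.

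Fatty acid genes were listed apart for synthesis and for use, and are read against 6.18% rises and 4.93% falls over all genes. Of 21 genes of synthesis, 4 fell and 1 rose: Lpin1 (log2 fold change -0.86, adjusted p = 0.0382), the citrate carrier Slc25a1 (log2 fold change -0.59, adjusted p = 0.0403), the elongase Elovl5 (log2 fold change -0.39, adjusted p = 0.02) and the desaturase Fads2 (log2 fold change -0.38, adjusted p = 0.033) fell, and Fasn, the synthase, did not pass (log2 fold change -0.13, adjusted p = 0.615). The rise was that of Acacb, the mitochondrial acetyl-CoA carboxylase that restrains oxidation, at 1.71, 1.76 and 2.06 CPM with si Ctrl and 3.7, 3.8 and 4.4 CPM with si mH2A1.1 (log2 fold change 1.1, standard error 0.18, adjusted p = 0.00638). Of these falls, none held in all fits with 1 sample left out, while the rise of Acacb did. The median log2 fold change of the synthesis list was -0.07. Of 38 genes of oxidation and lipid storage, 8 rose and 2 fell. Fabp3 (ENSMUSG00000028773, chromosome 4, 130308595 to 130315463, plus strand), the fatty acid carrier of heart and oxidative muscle, was at 6.75, 6.1 and 8.9 CPM with si Ctrl and 41.3, 24.5 and 32 CPM with si mH2A1.1 (log2 fold change 2.17, standard error 0.25, adjusted p = 0.00227). The lipid droplet coats Plin2 and Plin4 were at 114, 138 and 98.5 CPM with si Ctrl and 284, 183 and 233 CPM with si mH2A1.1 (log2 fold change 1.0, adjusted p = 0.0075) and at 15.2, 19.9 and 18.5 CPM with si Ctrl and 29.8, 30.2 and 38.1 CPM with si mH2A1.1 (log2 fold change 0.87, adjusted p = 0.00613). Acadl, of beta-oxidation (log2 fold change 0.72, adjusted p = 0.00622), Lpl, the lipase that frees fatty acids from lipoproteins (log2 fold change 0.65, adjusted p = 0.00845), and its inhibitor Angptl4 (log2 fold change 1.6, adjusted p = 0.029) rose too, and Ucp3 fell (log2 fold change -1.12, adjusted p = 0.0269). Cpt1b, the gate of fatty acids into mitochondria, and the coactivator Ppargc1a did not pass (log2 fold change 0.01, adjusted p = 0.988 and log2 fold change 0.33, adjusted p = 0.344). The calls of Acadl, Fabp3, Lpl, Plin2 and Plin4 were kept with any 1 sample left out, and each of the 5 was higher than with si mH2A1.2, by 2.64 for Fabp3 and 1.36 for Lpl on the log2 scale (adjusted p = 0.000263 and 0.000163).

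Glycolysis and glycogen genes gave 7 rises and 3 falls of 53 (13.2% and 5.66%, against 6.18% and 4.93% of all genes) with a median of -0.08. The rises included glycogen genes. Ppp1r3a, which brings the phosphatase PP1 to glycogen in muscle, was at 2.52, 1.01 and 1.88 CPM with si Ctrl and 5.73, 7.53 and 9.4 CPM with si mH2A1.1 (log2 fold change 2.06, standard error 0.31, adjusted p = 0.00497), and Ugp2, which makes UDP-glucose, at 104, 114 and 133 CPM with si Ctrl and 207, 189 and 234 CPM with si mH2A1.1 (log2 fold change 0.84, standard error 0.14, adjusted p = 0.0068). Phka2, the liver form of the regulatory subunit of phosphorylase kinase, was at 237, 236 and 199.7 CPM with si Ctrl and 91.6, 144 and 90.9 CPM with si mH2A1.1 (log2 fold change -1.04, standard error 0.18, adjusted p = 0.00901). Fbp2, the fructose bisphosphatase of muscle, with at most 1 count in each control sample, was at 1.41, 1.38 and 1.06 CPM with si mH2A1.1, a ratio of 72.7 with an exact 95% interval from 19.8 to 605 for counting error. It lies below 1 CPM on average and is named for its role. In the lower glycolytic steps, Eno3, the muscle enolase, was at 361, 389 and 561 CPM with si Ctrl and 788, 648 and 716 CPM with si mH2A1.1 (log2 fold change 0.72, adjusted p = 0.0426). Pfkm, the muscle phosphofructokinase, at 464, 542 and 787 CPM with si Ctrl and 335, 396 and 377 CPM with si mH2A1.1 (log2 fold change -0.69, adjusted p = 0.0483), and Pfkfb3 (log2 fold change -0.83, adjusted p = 0.0268), which makes its activator, fell, while Hk2 overlapped (log2 fold change -0.05, adjusted p = 0.92). The calls of Fbp2, Ppp1r3a, Ugp2 and Phka2 were kept with any 1 sample left out, and those of Eno3, Pfkm and Pfkfb3 were not.

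Subunits of oxidative phosphorylation were few among the calls. Of 81 nuclear genes, Cycs (log2 fold change 0.70, adjusted p = 0.0424), Ndufa1 (log2 fold change 0.52, adjusted p = 0.0132) and Cox5a (log2 fold change 0.39, adjusted p = 0.0431) rose and Uqcrh fell (log2 fold change -0.67, adjusted p = 0.0145). These are 3.7% and 1.23% of the list, below the 6.18% and 4.93% of all genes. The median was 0.14, and 61 had a log2 fold change above 0, against 49.1% of all genes. Ndufa1, of complex I, was at 24.4, 23.5 and 23.1 CPM with si Ctrl and 36.6, 31.6 and 33.6 CPM with si mH2A1.1, and Uqcrh, of complex III, at 144, 161 and 175 CPM with si Ctrl and 106, 103 and 91.9 CPM with si mH2A1.1. None of the 4 calls held in all fits with 1 sample left out, the rises being 1, 0 and 1 without si Ctrl replicates 1, 2 and 3 and 1, 5 and 1 without si mH2A1.1 replicates 1, 2 and 3. Against si mH2A1.2 40 were higher and 1 lower, where 12% and 10.5% of all genes were. The si mH2A1.2 samples lay below the mean of the controls for this list, with a median log2 fold change of -0.25 and per-sample medians of -0.41, -0.26 and -0.07, and the median difference between the knockdowns was 0.43. Of the 13 genes on mitochondrial DNA, mt-Nd6 rose, from 465, 537 and 697 to 895, 836 and 991 CPM (log2 fold change 0.68, adjusted p = 0.0213). It is the only one of these genes on the light strand, and reads of its antisense transcripts cannot be told apart unless strand was used in the counting, which is not given in the sources used here.

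Genes of NAD metabolism and most PARP genes outside the interferon response, which make and consume the ligand of the macroH2A1.1 macrodomain, gave 1 rise and 3 falls of 31, with a median of 0.02. These are 3.23% and 9.68% of the list, against 6.18% and 4.93% of all genes. Parp9, Parp12 and Parp14, which rose, were counted among the interferon-stimulated effectors. Nmnat2, an enzyme of NAD synthesis best known from axons, was at 3.8, 4.21 and 3.3 CPM with si Ctrl and 13.7, 9.76 and 11.9 CPM with si mH2A1.1 (log2 fold change 1.64, standard error 0.22, adjusted p = 0.00355), and the call was kept with any 1 sample left out. Sirt3, the mitochondrial deacetylase (log2 fold change -0.58, adjusted p = 0.0269), Parp16 (log2 fold change -0.64, adjusted p = 0.0371) and Parp6 (log2 fold change -0.57, adjusted p = 0.0468) fell, and none of these 3 falls held in all fits with 1 sample left out. Parp1, which makes most of the cell's poly(ADP-ribose), was at 85.3, 88 and 102 CPM with si Ctrl and 99.5, 76.4 and 85.8 CPM with si mH2A1.1, and its groups overlapped (log2 fold change -0.07, adjusted p = 0.718).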

How the data were processed

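mRNA of 9 C2C12 samples was sequenced as single reads. Per the labels, which name Salmon, and the methods, the authors estimated expected counts per gene on mm10 and deposited them as whole numbers without normalization. The second deposited table, a normalized signal made from these counts, was not used. Groups came from the labels. In R 4.3.3, edgeR 4.0.16 (TMM, filterByExpr, quasi-likelihood test in its legacy form) was run on the 9 samples in 1 model, and the contrasts si mH2A1.1 minus si Ctrl and si mH2A1.1 minus si mH2A1.2 were adjusted by Benjamini-Hochberg over 19545 genes. With 3 samples against 3 an exact permutation test cannot give a two-sided p below 0.1. The test was checked on simulated counts. GENCODE M21 named 52762 of 52780 genes. Promoters were RefSeq's, read from 250 bases before to 50 after a start.

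The members and lists (27 gene lists and 8 marker lists) were chosen with earlier results of these data known. Named were, per list, up to 6 members with the largest changes past an adjusted p of 0.05 and 1 CPM on average, members that the list's role turns on, and the 12 largest rises and falls past an adjusted p of 0.01 and a log2 fold change of 0.8 with an official symbol and no overlap of the groups. Some genes that these rules select are not reported here. Alternatives were DESeq2 1.42.0, its size factors in edgeR, no filter, a mean of at least 1 CPM, the replicate block, the 6 samples alone, edgeR's newer form and each sample left out, and DESeq2 with the block was added after the data were seen. Tables and plots were made in Python 3.11.15 (matplotlib 3.10.9, scipy 1.17.1, numpy 2.4.6, pandas 2.3.3).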

Additional observations from a re-analysis of the deposited data

How the results depend on the processing

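Of the 195 named genes that were tested, 157 passed an adjusted p of 0.05, and no alternative reversed the direction of one that did. With all replicates kept, 144 of the 157 passed under every alternative, 12 did not pass in the fit of the 6 samples alone (among them Birc5, Cycs, Kif23, Mcm3, Myh6, Pfkm and Pole) and 4 did not pass without the filter (Akr7a5, Cox5a, Fads2 and Gpx1). Without 1 sample the calls were fewer: 28, 68 and 58 of the 157 were lost without si Ctrl replicates 1, 2 and 3, and 59, 4 and 64 without si mH2A1.1 replicates 1, 2 and 3, so 83 were kept in all 6 fits. These fits have fewer samples. Of the 38 named genes that did not pass, 18 passed in at least 1 alternative. Of the named genes, 148 differed between the knockdowns, and 110 to 154 with 1 sample left out.

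Counts depended on the test. DESeq2 called 3354 genes where edgeR called 2171, and at the stricter limit 992 where edgeR called 352, 30 of replication (edgeR 11), 32 of mitosis (4), 23 of the sarcomere (11), 17 of excitation-contraction coupling (9) and 12 nuclear genes of oxidative phosphorylation (4). Without the filter on low counts, edgeR called 800 genes at the stricter limit, 26 of replication, 26 of mitosis and 20 of the sarcomere. The 6 samples alone gave 195 genes at the stricter limit and 4 of replication. The cause was not tested. DESeq2's size factors, a mean of at least 1 CPM and edgeR's newer form left each of these counts within 1.5 times, and the interferon-stimulated effectors (59 called), the sterol genes (17), the glutathione genes (10) and the glycolysis genes (10) stayed within 1.5 times under each of the alternatives above and with the replicate block.

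With 1 sample left out, the calls ranged from 605 to 2928 genes, from 32 to 546 at the stricter limit, from 43 to 65 interferon-stimulated effectors, from 7 to 15 glutathione genes, from 0 to 41 of replication, from 0 to 44 of mitosis, from 2 to 12 of the sarcomere, from 6 to 12 of excitation-contraction coupling, from 4 to 10 of glycolysis, from 0 to 8 of oxidative phosphorylation and from 8 to 14 sterol genes. The highest values were mostly those without si mH2A1.1 replicate 2.

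The labels number the replicates 1 to 3 in each group, and no source used here says that a number marks a shared culture or day, although the sample names in the labels run in consecutive sets of 1 control and 2 knockdowns per number. Deviations from the group mean correlated between same-numbered samples of si mH2A1.1 and si Ctrl with r = 0.0873, 0.0841 and 0.0976 across genes. Between samples of different numbers r ran from -0.0739 to -0.0213. The main fit did not take the numbers as pairs because no source states a pairing. These correlations do not settle whether the samples were matched. Each of the 6 samples correlated best with the sample of its own number, a hint from the data and not from the design. With the replicate block edgeR called 4065 genes, 795 at the stricter limit, 30 of replication, 55 of mitosis, 31 of the sarcomere, 19 of excitation-contraction coupling and 8 of oxidative phosphorylation, and the other lists stayed within 1.5 times. DESeq2 with the replicate block, chosen after the data were seen, called 4091 genes, 1124 at the stricter limit, 16 glutathione genes, 35 of replication, 57 of mitosis, 34 of the sarcomere, 27 of excitation-contraction coupling, 18 of glycolysis and 12 of oxidative phosphorylation. Levels below 3 counts per library, such as those of Ifnb1 and of Oas1a in the controls, are at the limit of the depth.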

Other observations

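The genes of the amino acid stress response, which ATF4 drives, and of serine synthesis split the knockdown samples. In edgeR 0 of 34 genes tested passed an adjusted p of 0.05, 1 rose and 3 fell at an unadjusted p below 0.05, and DESeq2 called 1 rise. The median over the list of the log2 ratio to the control mean was -0.91, 0.28 and -0.83 in si mH2A1.1 replicates 1, 2 and 3 and 0.30, -0.10 and -0.17 in si Ctrl. Replicate 2 was the highest of the 3 knockdown samples for 31 of the 34 genes. Asns, which makes asparagine, was at 277, 199.99 and 182 CPM with si Ctrl and 58.4, 270.4 and 74.5 CPM with si mH2A1.1, so replicate 2 was at the level of the controls and the other two were far below them (log2 fold change -0.71, adjusted p = 0.366). Phgdh, the first enzyme of serine synthesis, was at 318, 248 and 238 CPM with si Ctrl and 128, 325 and 139.7 CPM with si mH2A1.1 (log2 fold change -0.44, adjusted p = 0.395), and Trib3, a target of ATF4, was at 62.5, 52.9 and 33.3 CPM with si Ctrl and 15.3, 55.3 and 22.9 CPM with si mH2A1.1 (log2 fold change -0.67, adjusted p = 0.36). Atf4 itself was at 399, 403 and 356 CPM with si Ctrl and 322, 425 and 285 CPM with si mH2A1.1 (log2 fold change -0.17, adjusted p = 0.488). Without replicate 2, 18 genes of the list fell. This sample was also the nearest to the controls for cell division genes and had the lowest levels of most interferon-stimulated effectors, and the part of 1 sample in these results was not tested.

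Chaperones and enzymes of folding in the endoplasmic reticulum gave 0 calls of 25 in edgeR, 2 rises and 2 falls at an unadjusted p below 0.05, and 1 fall in DESeq2, with a median log2 fold change of -0.02.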
